A study of Capra hircus with 12 samples.

Results

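The tables of black goat (Capra hircus) testis RNA name most loci with MSTRG identifiers, the form the assembler StringTie gives to loci it builds, and 1830 of 24116 loci with the word gene followed by a number. The 998 loci described here are those 1830 without gene13049, kept where the value was at least 1 FPKM (reads per kilobase of the locus at a common library size) in at least 2 of 11 libraries, and they are called members below. The level uses values of all ages together and no age label, but a member can have passed it through its highest age alone. For that reason the counts below describe the members and are set beside the same counts over all 12954 loci that passed the level. Another 831 loci with gene numbers stayed under it.

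Testis RNA was sequenced at 4 ages, which the labels name neonatal (titles D3, 3 libraries), prepuberty (D30, 3), puberty (D90, 2 analysed here) and postpuberty (D180, 3). All samples are labelled WT and testis, and no treatment is named. Puberty replicate 1 was not analysed here. The labels do not say whether the libraries of an age stem from different animals. The p-values then measure only the spread between these samples, which may be technical.

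The testis is a tissue whose makeup changes with age. A neonatal testis holds cords of Sertoli cells, the somatic nurse cells, with few germ cells, and Leydig cells between the cords make androgen. Around puberty the germ cells enter meiosis and then form spermatids, which bring many RNAs that earlier cells of the testis make little of, while the somatic cells become a smaller part of the organ. In bulk RNA of this kind, fewer cells of a type and less RNA per cell cannot be told apart.

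What the gene numbers stand for is not stated in the tables. The identifiers matched 0 of 28911 genes in the RefSeq table of assembly ARS1.2, and 0 of 23 marker symbols of testis cell types occur in the tables, so members have no gene name, position or known product here and the tissue label could not be checked against markers. Members were shorter than the other tested loci. Lengths were read from the steps between FPKM values (implied lengths), with a median of 946.5 bases for members and 2417 for the 11955 tested MSTRG loci. The shortest member had an implied length of 114 bases and the longest 14605, and 19 members were under 200. Where all read counts of a locus share a factor, the implied length is too short by that factor.

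Behind the values stood scaling totals of 19128357 to 35614224 reads per library, of which 13.7% to 25.6% fell on the loci of the tables. Members took 141690 to 275148 reads per library, 2.97% to 5.52% of the reads on the tables. Intervals given below for low read counts cover counting error only. Prepuberty replicate 1 held reads for more of the late members than the other younger libraries did. Of 45 members that rose by at least 3 on the log2(FPKM + 1) scale at puberty, it had a read for 42, against 37 and 33 in prepuberty replicates 2 and 3 and 32 to 35 in the neonatal libraries. Counts without that library are given beside the results before and at puberty.

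Members were detected at nearly every age, with a shift in total level between prepuberty and puberty. Neonatal libraries held a read for 943 ± 4.16 members (SD, n = 3) and prepuberty libraries for 956 ± 9.61 (n = 3). The number was 981.5 ± 3.54 (n = 2) at puberty and 979.7 ± 3.51 (n = 3) at postpuberty. Depth differed with age as well, with scaling totals of 19128357 to 20535321 reads in neonatal and 25512691 to 26802945 in prepuberty libraries. Totals were 34526409 and 35614224 at puberty and 28124423 to 34719495 at postpuberty. Whether a member has a read depends on depth, so age and depth cannot be told apart in these counts. All 11 libraries had a read for 856 members (85.8%), against 62.5% of all tested loci, and 316 members (31.7%) were at 1 FPKM or more in every library, against 8.32% of all tested loci. Members had higher levels, with a median mean of 2.21 FPKM against 0.925 for tested MSTRG loci, and these shares were not compared at like level. The FPKM of members summed to 4391 ± 251 at the neonatal age and 4638 ± 48.97 at prepuberty, then to 6441 ± 118 at puberty and 6835 ± 19.1 at postpuberty. The lowest sum of the 5 older libraries, 6357, lay above the highest of the 6 younger ones, 4695. Their share of all FPKM in the tables went from 3.44% ± 0.15 and 6.12% ± 0.193 at the younger ages to 10.7% ± 1.66 and 11.2% ± 0.495 at the older ones. The FPKM sum of the tables itself differed, at 125743 to 129361 in neonatal, 72751 to 78774 in prepuberty, and 55125 and 67027 in the puberty libraries, so most of the first step in share lies in the sum it is divided by. By reads the members' share was 3.01%, 3.85%, 5.24% and 4.66% in order of age. The median member did not follow the sum: it stood at 1.61 to 1.85 FPKM in the neonatal libraries and 1.65 to 1.73 at prepuberty, then at 1.59 and 1.605 at puberty and 1.796 to 1.96 at postpuberty, and the ranges of the ages overlapped or lay close together. The 5 members with the highest means made up 10.4% to 13.0% of the members' sum in younger libraries and 21.5% to 24.6% in older ones. The share of the leading 2, gene21247 and gene1557, was 10.2% to 12.7% in younger and 7.95% to 9.79% in older libraries, so the larger share came from gene6709, gene21344 and gene14810, whose high values are in the older libraries.

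**Figure D1:**
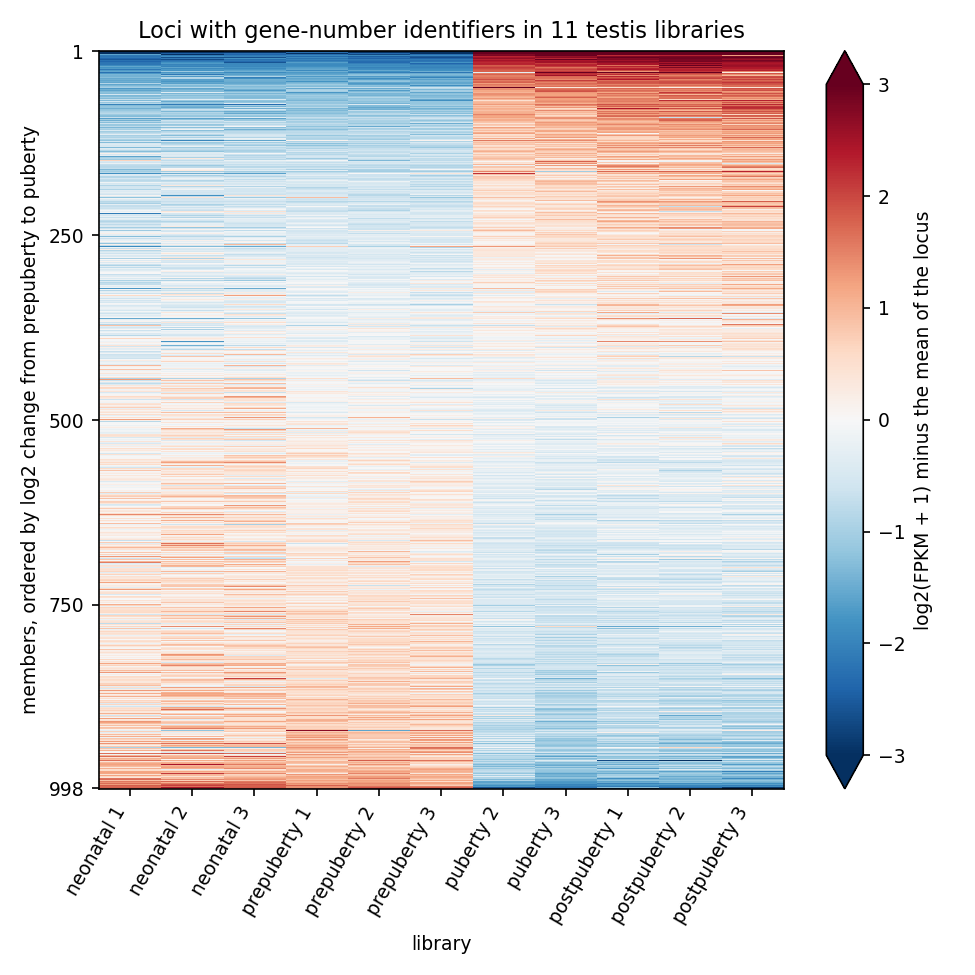
Each row is a member and each column a library. Colour gives log2(FPKM + 1) minus the mean of that locus over the 11 libraries (red above, blue below, ends of the scale at 3), and rows are ordered by the change from prepuberty to puberty. The colours change between the 6 neonatal and prepuberty columns and the 5 puberty and postpuberty columns, with 200 members called higher at the top and 210 called lower at the bottom.

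The libraries of an age gave much the same order of members. Across the 998 members, Pearson correlations of log2(FPKM + 1) were 0.92 to 0.94 between neonatal, 0.95 to 0.96 between prepuberty, 0.95 between the puberty pair and 0.96 to 0.98 between postpuberty libraries. Between neonatal and prepuberty libraries r was 0.87 to 0.93, and it was 0.94 to 0.95 from puberty to postpuberty. Prepuberty and puberty libraries correlated at 0.31 to 0.41. The same pairs of ages gave -0.01 to 0.06 across tested MSTRG loci. Those loci passed the same level but lay closer to it, with a median mean of 0.925 FPKM against 2.21 for members. A locus can pass the level through 1 age alone, so the 2 ranges of r are not directly comparable. All these correlations are across loci that share libraries and depth, with loci as points, and they carry no test. The SD between replicates on the log2 scale had a median over members of 0.22 at the neonatal age, 0.17 both at prepuberty and at puberty, and 0.16 at postpuberty.

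Tests were made with limma on log2(FPKM + 1) over all 12954 loci, with 1 mean per age. A locus is said below to have risen or fallen, or to be called, where its Benjamini-Hochberg adjusted p was under 0.05 and its log2 change reached 1 or -1. This scale understates the change of low loci. A limma F test across the ages called 604 members (60.5%), against 65.3% of all tested loci, and 394 were not called. Of these 604, 223 had their highest mean at postpuberty, 198 at the neonatal age, 120 at prepuberty and 63 at puberty. For all called loci of the tables, postpuberty held 55.2% of the highest means, against 36.9% for members, and prepuberty held 9.498%, against 19.9% for members.

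The most abundant members lay on both sides of the break at puberty. gene21247 (implied length 372 bases) had the highest mean of the 4 age means, with 127, 116 and 117 FPKM in the neonatal libraries, 140.3, 150.5 and 164 in prepuberty, 437 and 424 in puberty, and 461, 412 and 447 in postpuberty. The 5 older libraries lay above the 6 younger ones without overlap, and it rose 2.84-fold at puberty (log2 change 1.5 ± 0.14 SE, limma adjusted p = 5.73e-06). gene1557 (781 bases) took the opposite course, with 292, 339.8 and 386 FPKM in the neonatal libraries, 422, 404 and 433 in prepuberty, 186 and 164 in puberty, and 146, 131 and 136 in postpuberty. It fell 2.4-fold at puberty (log2 change -1.26 ± 0.16 SE, limma adjusted p = 4.53e-05), a call that ended after median of ratios scaling (log2 change -0.67) and with the same FPKM sum in every library (-0.94). In gene1557 every older library was below every younger one. gene6709 (772 bases) was already present before puberty, with 8.14, 8.12 and 8.46 FPKM in the neonatal libraries, and 12.3, 10.7 and 11.1 in prepuberty, and reached 319 and 402 FPKM in puberty and 387, 358 and 349 in postpuberty testes. Its rise at puberty was 31.7-fold (log2 change 4.86 ± 0.14 SE, limma adjusted p = 1.31e-09). gene21892 (500 bases) had a more gradual course, from 48.97 ± 19.99 (SD, n = 3) FPKM through 70.6 ± 17.98 and 125 ± 57.2 to 112 ± 3.74 (SD, n = 3). No single step of gene21892 was called, its whole span was (log2 change 1.26 ± 0.31 SE, limma adjusted p = 0.00293), and that call ended without neonatal replicate 2 (log2 change 0.99) and turned to -0.27 under quantile normalization.

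Prepuberty against neonatal asks which members change before puberty. Of the 998 members 21 rose (2.1%, against 0.826% of all tested loci) and 13 fell (1.30%, against 1.24%), and 964 were not called. The median change was -0.03 on the log2 scale for members and for all tested loci as deposited. With the same FPKM sum in every library it was 0.35 for members and 0.05 for all tested loci, and the members' median was 0.07 with median of ratios scaling and 0.08 after quantile normalization. The libraries of these ages stood apart for 150 members that were higher (against 6.23% of all tested loci) and 135 that were lower (against 17.4%). The calls of this step rest on the spread pooled over all ages: a limma fit of these 6 libraries alone called 2 rises and 0 falls (243 members had an unadjusted p under 0.05). The counts by voom, applied to recovered reads from every library, were 21 and 13, of which 15 and 8 were among the main calls. Without neonatal replicate 3, 6 members fell. Without prepuberty replicate 1, 21 rose and 14 fell, of which 17 and 11 were among the main calls. Rises made up 61.8% of the calls, 99.0% with the same FPKM sum in every library, 79.5% after quantile normalization and 84.8% with median of ratios scaling. The shares among the calls of all tested loci were 39.9%, 96.0%, 66.4% and 70.6% in the same order.

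gene28765 (150 bases) had the largest rise of this step, and it was short-lived. Its values were 0.325, 0 and 0 FPKM in the neonatal libraries, 5.47, 4.44 and 7.23 in prepuberty, 1.498 and 0.579 in puberty, and 1.54, 2.84 and 1.101 in postpuberty. All prepuberty libraries lay above those of the other ages, with 1 read in all neonatal libraries against 68 in prepuberty, a ratio of 51.0 (95% exact interval 8.85 to 2040, counting error only). It rose here (log2 change 2.59 ± 0.25 SE, limma adjusted p = 0.000647), fell at puberty (log2 change -1.74 ± 0.28 SE, limma adjusted p = 0.000259), and was the 1 member of the 210 falling at puberty that was called higher in postpuberty than in neonatal testes. gene2057 (597 bases) went from 4.65, 1.45 and 1.49 to 18.4, 10.3 and 30.3 FPKM. Its prepuberty values spread widely but did not overlap the neonatal ones, and the rise was 7.78-fold (log2 change 2.55 ± 0.41 SE, limma adjusted p = 0.00458). With only these 6 libraries in the fit, gene2057 had an adjusted p = 0.105 in limma.

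Members that rose before puberty took separate courses afterwards. By the calls at the 3 steps, 9 of the 21 fell again at puberty, 8 were called at neither later step and 4 rose a second time. Of the 107 rises among all tested loci, 61, 38 and 8 took these courses in the same order. gene8110 (2266 bases), the most abundant of those that fell again, had 15.7, 9.28 and 17.1 FPKM in the neonatal libraries, 26.7, 28.2 and 30.2 in prepuberty, 9.93 and 8.91 in puberty, and 6.43, 4.96 and 6.33 in postpuberty. Its prepuberty libraries were the highest of all 11. The rise of gene8110 was close to the threshold (log2 change 1.01 ± 0.20 SE, limma adjusted p = 0.0113) and was not called without neonatal replicate 2 (log2 change 0.75) or prepuberty replicate 3 (0.96), or with these 2 ages alone (limma adjusted p = 0.122). Its later fall was 3.01-fold (log2 change -1.49 ± 0.22 SE, limma adjusted p = 0.000133), and was not called after median of ratios scaling (log2 change -0.95). gene28279 (1147 bases) followed the same course, with means of 2.02 ± 0.2002 (SD, n = 3), 6.94 ± 1.69, 1.14 ± 0.713 and 0.835 ± 0.111 FPKM in order of age. gene26856 (345 bases) rose at both steps, from 4.66, 3.396 and 3.49 through 8.87, 9.66 and 8.13 to 77.6 and 107 FPKM in puberty and 76.6, 96.8 and 97.8 in postpuberty testes. Its first rise was 2.31-fold (log2 change 1.04 ± 0.17 SE, limma adjusted p = 0.00478) and was not called once prepuberty replicate 2 (log2 change 0.98) or a neonatal library (0.97 without replicate 2 and 0.98 without replicate 3) was left out, with these 2 ages alone (limma adjusted p = 0.0638) or by voom (0.116). gene16533 (795 bases) likewise rose 3.34-fold before puberty and 5.37-fold at puberty, from 1.95 ± 0.283 (SD, n = 3) FPKM through 6.49 ± 1.899 to 34.8 ± 6.62 (SD, n = 2). The first of these calls ended with the 2 ages alone (limma adjusted p = 0.074).

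Among the 13 members that fell before puberty, 10 were called at no later step and 3 fell again at puberty. Of the 161 falls among all tested loci, 128 and 30 took these courses. gene7384 (125 bases) had the largest fall, from 0.779, 13.4 and 6.69 to 0, 0 and 0.299 FPKM, which is 51 reads against 1. That fall is a ratio of 68.0 (95% exact interval 11.7 to 2740), but the neonatal values spread over more than 10-fold and the call ended in 11 of 20 alternatives. Those 11 were the fit without the level (limma adjusted p = 0.0524), the 2 ages alone (0.207), and the fits without neonatal replicate 2 (0.0786) or 3 (0.0906), prepuberty replicate 1 (0.0854), 2 (0.0646) or 3 (0.0781), puberty replicate 2 or 3 (0.0519 each), or postpuberty replicate 2 (0.0507) or 3 (0.0536). gene24947 (613 bases) fell from 7.94, 7.98 and 5.46 to 1.83, 2.24 and 1.71 FPKM (log2 change -1.46 ± 0.19 SE, limma adjusted p = 0.00211), a call that ended with these 2 ages alone (limma adjusted p = 0.0589) and with the same FPKM sum in every library (log2 change -0.85). gene21154 (6148 bases) and gene26158 (9951 bases) fell at both of the first steps. gene21154 had 22.6, 27.5 and 25.1 FPKM in the neonatal libraries, 12.1, 13.3 and 10.3 in prepuberty, 0.6896 and 0.382 in puberty, and 0.178, 0.278 and 0.2095 in postpuberty. Its levels of the 4 ages did not overlap, and it was 113-fold lower in postpuberty than in neonatal testes (log2 change -4.41 ± 0.13 SE, limma adjusted p = 6.26e-10). The first step of gene21154 (log2 change -1.02) was not called without neonatal replicate 2 (-0.95) or prepuberty replicate 3 (-0.93), after median of ratios scaling (-0.80), with the same FPKM sum (-0.30) or with 2 ages alone (limma adjusted p = 0.0616). gene26158 went from 12.8 ± 1.33 (SD, n = 3) through 4.78 ± 0.929 to 0.656 ± 0.01398 (SD, n = 2) FPKM and was 22.8-fold lower over the whole span (log2 change -3.14 ± 0.13 SE, limma adjusted p = 8.72e-09). Its first fall was not called with the same FPKM sum (log2 change -0.59) or with 2 ages alone (limma adjusted p = 0.0616).

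Puberty against prepuberty covers the step into puberty. Of the 998 members 200 rose (20%, against 23.7% of all tested loci) and 210 fell (21.0%, against 13.0%), and 588 were not called. The larger share of falls did not hold at higher levels: in the upper 2 of 4 ranges of mean level 26.9% and 27.6% of members fell, against 33.8% and 29.7% of all tested loci. The median change was -0.25 for members and 0.26 for all tested loci. Without prepuberty replicate 1, 200 members rose and 219 fell, of which 193 and 203 were among the main calls. The libraries of these ages did not overlap for 342 members that were higher (34.3%, against 48.4% of all tested loci) and 460 that were lower (46.1%, against 36.8%).

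The scale of a library moves the split between rises and falls. Of the calls among members, 48.8% were rises, against 68.5% after median of ratios scaling, 59.8% with the same FPKM sum in every library and 37.3% under quantile normalization. These scalings moved the median of all tested loci from 0.26 to 0.50, 0.41 and 0.06, respectively. The median of the members moved with it, to 0.07, -0.08 and -0.47, and lay below that of all tested loci by 0.51 as deposited and by 0.42, 0.50 and 0.54 under the 3 scalings in the same order. The sign of the members' median at puberty thus depended on the scaling, while it lay below the median of all tested loci under these 4.

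**Figure D2:**
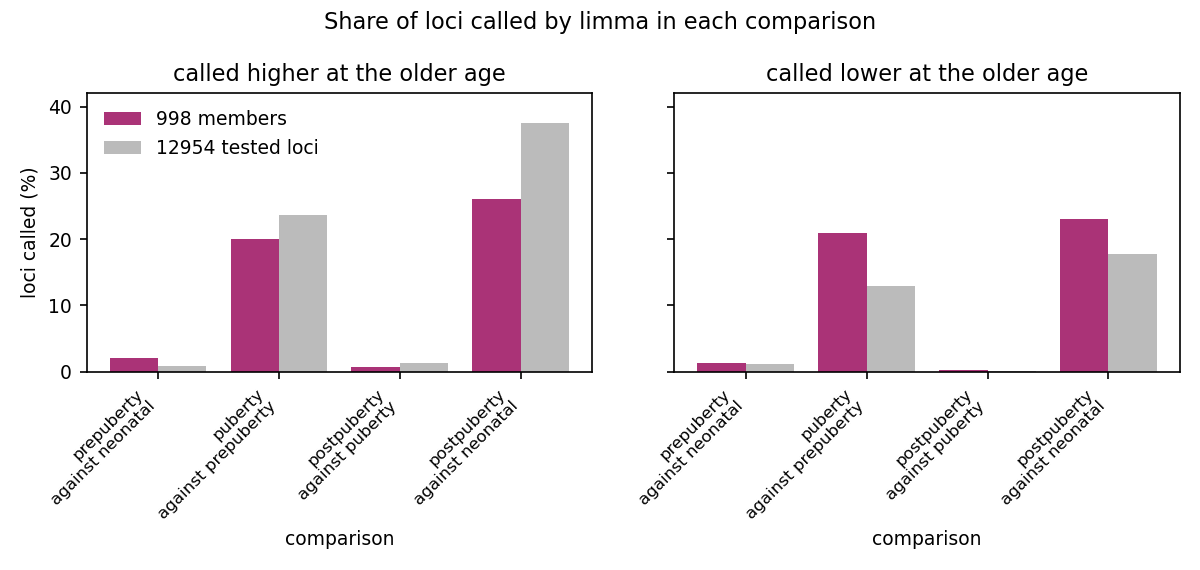
Bars give the percentage of loci called by limma in each comparison (adjusted p under 0.05 and a log2 change of at least 1), for the 998 members in purple and all 12954 tested loci in grey, with calls higher at the older age on the left and lower on the right. At puberty 20% of members rose and 21.0% fell, against 23.7% and 13.0% of all tested loci.

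The largest rises at puberty were mostly of members with low values in younger testes. A rise of at least 3 on the log2 scale was reached by 45 of the 998 members and by 301 of the 12954 tested loci. The median of the 45 was 0.376 to 0.655 FPKM in the younger libraries, though gene6709, 1 of them, was already present there. Of the 45, gene21344 (1040 bases) had the largest. It stood at 0.468, 0.9795 and 1.51 FPKM in the neonatal libraries, 2.798, 1.17 and 0.612 in prepuberty, 334 and 376 in puberty, and 285, 316 and 255 in postpuberty, and rose 232-fold (log2 change 7.23 ± 0.32 SE, limma adjusted p = 2.2e-08). gene4459 (446 bases) was without a neonatal read and had 9 reads in prepuberty, all in prepuberty replicate 1, the younger library with reads for the most late members. Its values were 0.753, 0 and 0 FPKM in prepuberty, 157 and 143 in puberty and 170.5, 173 and 179 in postpuberty testes (log2 change 6.96 ± 0.22 SE, limma adjusted p = 1.62e-09). With the neonatal libraries together set at a floor of 3 reads, gene4459 was at least 1530-fold higher in postpuberty testes. gene14810 (517 bases) went from 1.004 ± 0.186 (SD, n = 3) to 227 ± 14.7 (SD, n = 2) FPKM, gene14497 (956 bases) from 0.525 ± 0.492 to 119 ± 2.96, and gene24322 (459 bases) from 0.422 ± 0.456 to 85.7 ± 11.5. In each of these 3 every older library lay above every younger one.

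Complete absence of reads before puberty was rare among members. Only 3 of 998 lacked reads in all 6 younger libraries and reached 1 FPKM in each of the 5 older ones, a pattern that 361 of the 12954 tested loci showed, and 0 members had the reverse. These 3, singled out after their values were seen, were gene20095, gene25422 and gene26827. gene25422 (1995 bases) had 12.4 and 17.5 FPKM in puberty and 10.8, 32.3 and 21.2 in postpuberty testes, at least 784-fold above a floor of 3 reads over the prepuberty libraries. gene20095 (669 bases) had 3.48 and 4.37 and 4.82, 4.94 and 7.31 FPKM at these ages (at least 69.1-fold), and gene26827 (533 bases) had 3.06 and 3.37 and 2.49, 4.74 and 3.04 (at least 45.1-fold). The 193 members that rose at puberty and at no other step had medians of the age means of 0.515 and 0.495 FPKM at the younger ages and of 6.15 and 7.33 at the older ones.

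Members that fell at puberty went from moderate to low levels. Falls of at least 3 on the log2 scale were reached by 6 of the 998 members and by 19 of the 12954 tested loci. gene8868 (122 bases) had the largest, with 33.1, 30.5 and 34.7 FPKM in the neonatal libraries, 33.3, 40.5 and 37.1 in prepuberty, 0.921 and 0.9496 in puberty, and 0.472, 2.04 and 0.542 in postpuberty. Every younger library of gene8868 was above 30 and every older one under 3, on 356 reads in prepuberty and 8 in puberty (log2 change -4.29 ± 0.26 SE, limma adjusted p = 2.45e-07). gene17713, a longer locus of 6141 bases, had 41.7, 20.2 and 35.2 FPKM in the neonatal libraries, 48.9, 55.8 and 47.6 in prepuberty, 1.95 and 1.61 in puberty, and 1.599, 1.49 and 1.19 in postpuberty, and it fell 28.5-fold (log2 change -4.22 ± 0.25 SE, limma adjusted p = 1.79e-07). gene26874 (125 bases) fell from 18.5, 26.7 and 24.8 to 0.225 and 0.695 FPKM, gene20432 (1010 bases) from 16.2, 19.6 and 18.3 to 1.06 and 0.574, and gene8567 (534 bases) from 14.3, 10.1 and 6.45 to 0.263 and 0.163. None of these 5 recovered in postpuberty libraries, where the highest value among them was 2.07 FPKM. The 197 members that fell at puberty alone had medians of the age means of 5.05 and 4.65 FPKM at the younger ages and of 0.932 and 0.942 at the older ones.

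**Figure D3:**
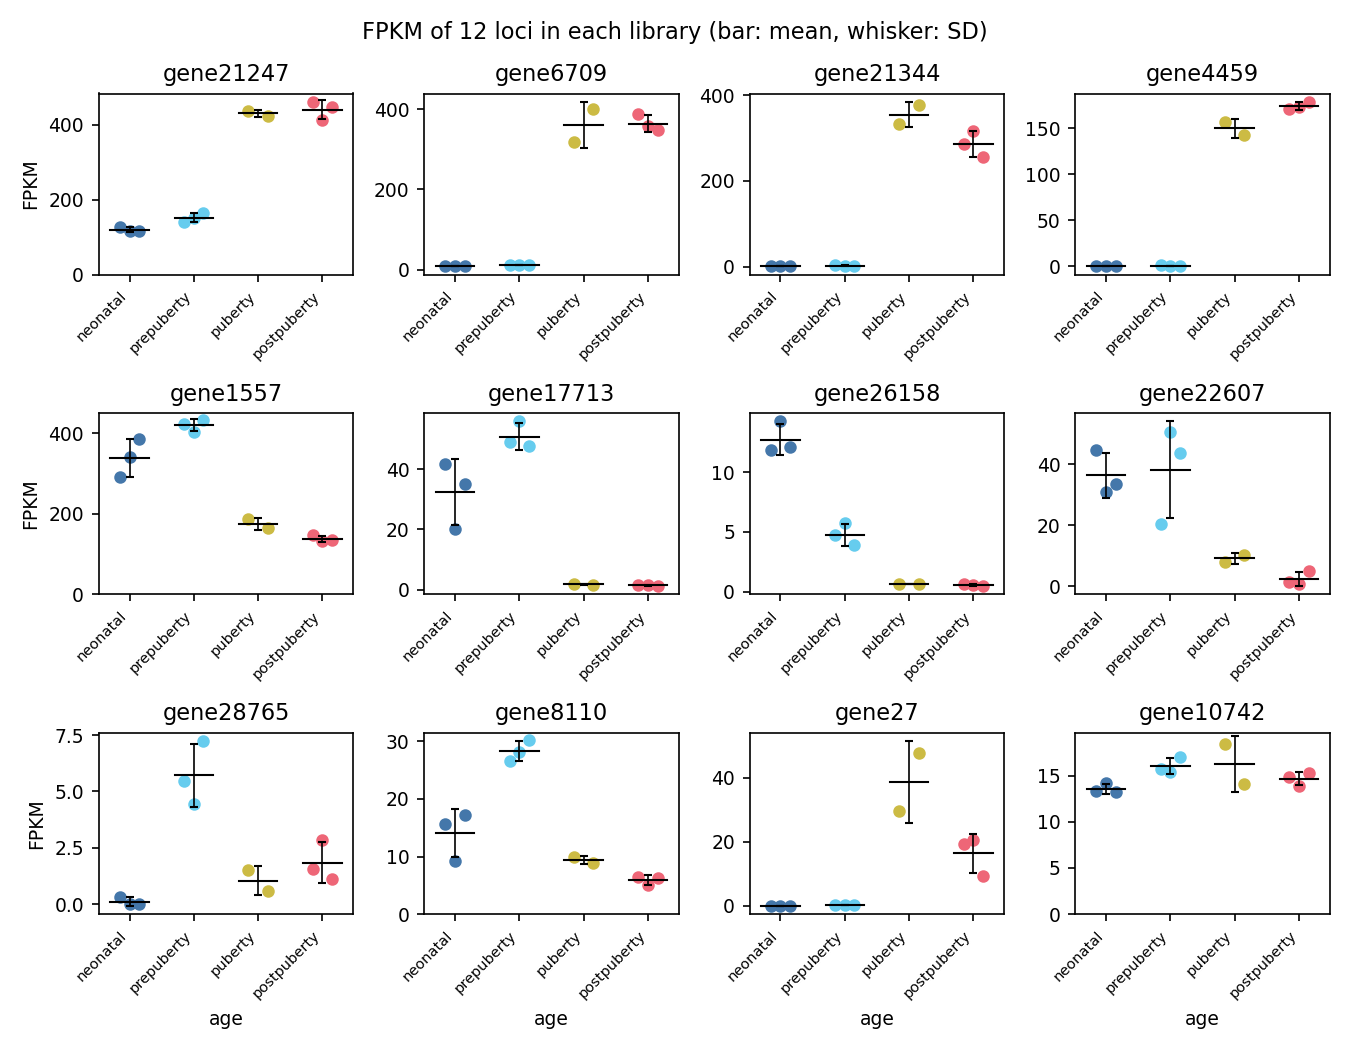
Each panel gives the FPKM (linear axis) of 1 locus in every library, with the libraries of an age as points, the mean as a bar and the SD as a whisker. The panels show members that rose at puberty (gene21247, gene6709, gene21344 and gene4459), that fell there (gene1557, gene17713, gene26158 and gene22607), that peaked in prepuberty (gene28765 and gene8110) or puberty (gene27), and 1 with a small range as deposited that reached 1.0 to 1.23 on the log2 scale under 3 other scalings (gene10742).

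Postpuberty against puberty covers the last step, and it rests on 2 puberty libraries. Of the members 7 rose (0.701%, against 1.26% of all tested loci) and 2 fell (0.2%, against 0.139%), and 989 were not called. Without puberty replicate 2 there were 17 rises and 5 falls, and the fit without puberty replicate 3 gave 8 and 4. Without neonatal replicate 3 or prepuberty replicate 3, 1 fall was called. With only the 5 libraries of these ages limma called 0 members in either direction (128 at an unadjusted p under 0.05), and voom on all libraries called 2 rises and 0 falls. Rises made up 77.8% of the calls, 83.3% with the same FPKM sum, 42.9% after quantile normalization and 45.5% with median of ratios scaling, on 7 to 12 calls. The shares among the calls of all tested loci were 90.1%, 93.3%, 57.6% and 73.3% in the same order. The median change was 0.07 for members and 0.18 for all tested loci as deposited, and the members' median turned to -0.13 after quantile normalization and -0.10 with median of ratios scaling. The libraries of the ages did not overlap for 244 members that were higher (24.4%, against 35.7% of all tested loci) and 93 that were lower (9.32%, against 3.88%).

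The 7 members that rose after puberty had postpuberty means of 1.83 (gene12920) to 16.5 FPKM (gene23798). The call of gene23798 was lost in 15 of 20 alternatives at limma adjusted p of 0.0539 to 0.249. Among these were the fits without puberty replicate 2 (log2 change 0.69, adjusted p = 0.249), postpuberty replicate 2 (0.0924) or 3 (0.118), prepuberty replicate 1 (0.0617) or any 1 of the neonatal libraries (0.0539 to 0.0576). gene8592 (280 bases) had the largest called rise, from 2.31 and 2.59 to 9.98, 9.397 and 6.13 FPKM (log2 change 1.44 ± 0.41 SE, limma adjusted p = 0.0446). Its call ended in 15 of 20 alternatives at limma adjusted p of 0.0576 to 0.233, among them the fits without any 1 of the prepuberty (0.0591 to 0.0678), puberty (0.146 and 0.152) or postpuberty libraries (0.0576 to 0.104). gene16572 (881 bases) was steadier: it had 7 reads in neonatal and 3 in prepuberty libraries, 1.21 and 0.953 FPKM in puberty and 3.92, 3.67 and 5.62 in postpuberty testes. That rise was 4.07-fold (log2 change 1.36 ± 0.15 SE, limma adjusted p = 0.00192), and ended with the 2 ages alone (limma adjusted p = 0.184). gene22859 (663 bases) rose at puberty and again after it, with 4.79 and 3.102 and then 13.4, 9.81 and 11.5 FPKM. The second rise was 2.93-fold (log2 change 1.36 ± 0.18 SE, limma adjusted p = 0.0032), and was not called under quantile normalization (log2 change 0.89), with a pseudocount of 0.1 (limma adjusted p = 0.106), by voom (0.0703) or with 2 ages alone (0.184). gene4807 (554 bases) stood at 1.12 and 1.202 and then 4.94, 3.59 and 5.19 FPKM (log2 change 1.36 ± 0.23 SE, limma adjusted p = 0.0074), a call lost with a pseudocount of 0.1 (limma adjusted p = 0.0841), by voom (0.0836) and with 2 ages alone (0.184).

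The falls after puberty were of 2 members with different histories. gene22607 (1753 bases) fell at both late steps, with 44.7, 30.7 and 33.4 FPKM in the neonatal libraries, 20.3, 50.4 and 43.7 in prepuberty, 7.897 and 10.4 in puberty, and 1.23, 0.811 and 4.96 in postpuberty. It was 15.6-fold lower in postpuberty than in neonatal testes (log2 change -3.67 ± 0.43 SE, limma adjusted p = 1.33e-05). Its last step (log2 change -1.80 ± 0.48 SE, limma adjusted p = 0.035) was not called in 11 of 20 alternatives, at adjusted p of up to 0.194. These include the fits without neonatal replicate 3 (0.0518), prepuberty replicate 3 (0.0525), puberty replicate 2 (0.0779) or 3 (0.183), or postpuberty replicate 1 (0.0877) or 2 (0.0855), and the replicate block (limma adjusted p = 0.063). gene27 (267 bases) had no read in neonatal libraries and 1 read in each prepuberty library, 29.6 and 47.6 FPKM in puberty and 19.3, 20.4 and 9.402 in postpuberty testes. Its rise from 3 to 720 reads is a ratio of 270 (95% exact interval 92.2 to 1310). Its later fall was 2.36-fold (log2 change -1.22 ± 0.28 SE, limma adjusted p = 0.0208), and was not called without puberty replicate 3 (log2 change -0.89) or postpuberty replicate 3 (-0.89), with a pseudocount of 0.1 (limma adjusted p = 0.0639), by voom (0.0554) or with 2 ages alone (0.203).

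Postpuberty against neonatal spans the series. Of the members 260 rose (26.1%, against 37.6% of all tested loci) and 230 fell (23.0%, against 17.7%), and 508 were not called. The larger share of falls was seen only in the lowest of 4 ranges of mean level, at 14% of members against 10.3%. In the higher ranges 21.7%, 28.9% and 27.6% of members fell, against 24.3%, 32.4% and 29.3% of all tested loci. The median change was -0.16 for members and 0.50 for all tested loci as deposited. The members' median was 0.16 after median of ratios scaling, 0.51 with the same FPKM sum and -0.47 under quantile normalization, so its sign depended on the scaling. Separate libraries were found for 357 members that were higher (35.8%, against 50.0% of all tested loci) and 419 that were lower (against 34.3%). Rises made up 53.1% of these calls, and 67.3% after median of ratios scaling, 81.6% with the same FPKM sum and 37.8% under quantile normalization, where the median of all tested loci stood at 0.70, 0.95 and 0.19. Of the 200 members that rose at puberty, 185 were also called higher over the span and 15 were not called. Of the 210 that fell, 153 were also lower, 56 were not called and 1 was higher. The span includes the step at puberty, so like calls are partly built in. The matching counts over all tested loci were not made. The largest rises over the span were of gene4459, gene21344 (289.7-fold), gene14497, gene14810 (177-fold) and gene24322 (179-fold), which are the 5 that also led at puberty. Of the 5 largest falls, of gene21154, gene26874, gene8868, gene8567 and gene17713, gene21154 differs in that it had already fallen before puberty.

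By the calls at the 3 steps, 565 members (56.6%) were flat, 197 (19.7%) fell at puberty alone and 193 (19.3%) rose at puberty alone. The same courses held 61.3%, 12.3% and 23.0% of all tested loci. The other 43 members followed 9 courses of 1 to 10 members each. A course called flat can still hold a change under the threshold: gene25279 (3277 bases) went from 57.9, 52.96 and 50.01 through 77.3, 71.8 and 76.3 to 97.5 and 93.7 and 96.2, 97.6 and 95.8 FPKM, with neonatal, prepuberty and puberty libraries apart from each other at each step and a span of 0.84 on the log2 scale.

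Of 100 members with a mean of at least 10 FPKM, 20 were not called by the F test. The matching share of all tested loci at that level was not counted, so these counts describe the members only. As deposited, the smallest range of the 4 age means on the log2 scale among the 100 was that of gene10742 (7824 bases), with 13.3, 14.2 and 13.3 FPKM in the neonatal libraries, 15.7, 15.4 and 16.98 in prepuberty, 18.4 and 14.1 in puberty, and 14.9, 13.9 and 15.2 in postpuberty, and a range of 0.23 (limma F adjusted p = 0.29). gene19303 (817 bases) had means of 11.7 ± 2.54 (SD, n = 3), 14.05 ± 1.85, 11.1 ± 2.67 and 11.9 ± 1.57 FPKM in order of age, a range of 0.32 (limma F adjusted p = 0.427). Both ranges depended on the scaling. That of gene10742 was 1.0 after median of ratios scaling (limma F adjusted p = 0.000387), 1.13 after quantile normalization (5.06e-05) and 1.23 with the same FPKM sum in every library (5.9e-06), and that of gene19303 was 0.69 (0.0143), 1.18 (0.00108) and 1.01 (0.000537) in the same order. A p above the threshold does not show that levels are equal.

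Members with neighbouring numbers tended to have like changes at puberty. There were 64 pairs of members whose numbers differ by 1, and across them the log2 changes correlated with a Pearson r of 0.45. In 19 of the pairs both members were called, 18 in the same direction. Pairs that differ by 2 gave 0.39 (49 pairs), by 3 -0.04 (45 pairs), by 4 0.15 (56 pairs), by 5 0.32 (40 pairs), by 10 0.13 (42 pairs) and by 20 -0.12 (27 pairs). Both members were called in 13, 14, 6, 9, 7 and 6 of these pairs in the same order. The calls had the same direction in 10, 8, 5, 7, 5 and 2 of them. The pairs share libraries and some share members, and no test was made. Whether neighbouring numbers are neighbouring loci, or loci that share reads, is not stated in the tables. The longest run of consecutive numbers with the same call was gene21162 to gene21165, 4 members that all fell at puberty. Most of the shorter runs were also of falls. gene21163 (5657 bases) had 16.6, 25.2 and 25.8 FPKM in the neonatal libraries, 16.5, 16.7 and 13.02 in prepuberty, 1.42 and 0.829 in puberty, and 1.22, 1.301 and 1.36 in postpuberty. gene21162 (1819 bases) went from 17.5 ± 1.13 (SD, n = 3) and 10.4 ± 2.44 to 0.932 ± 0.101 (SD, n = 2) and 1.22 ± 0.2, gene21164 (1187 bases) from 15.2 ± 0.583 and 9.44 ± 1.77 to 1.66 ± 0.592 and 2.36 ± 0.181, and gene21165 (2709 bases) from 6.23 ± 0.196 and 2.86 ± 0.781 to 0.557 ± 0.09199 and 1.03 ± 0.213. In all 4 the younger and older libraries were apart, and the falls at puberty were 11.2-, 13.7-, 5.68- and 5.13-fold in order of number.

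The highest numbers held few rises. Members with numbers of 26000 and above, a bound chosen after the values were seen in bins of 1000 numbers, were 83, and of these 6 (7.23%) rose and 32 (38.6%) fell at puberty. Of the 915 members with lower numbers, 194 (21.2%) rose and 178 (19.5%) fell. Their median changes were -0.82 and -0.18. Over the span the 83 held 8 rises (9.64%) and 41 falls (49.4%), and the 915 held 252 (27.5%) and 189 (20.7%). Implied lengths were alike, with medians of 958 and 946 bases. The count of falls among the 83 was 22 after median of ratios scaling, 28 with the same FPKM sum, 43 under quantile normalization and 31 to 33 with any 1 library left out, and rises numbered 5 to 8 in these settings. With a pseudocount of 0.1 there were 49 falls and 10 rises, and by voom 47 and 9. Because the bound was set on these values, the contrast is a description.

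**Figure D4:**
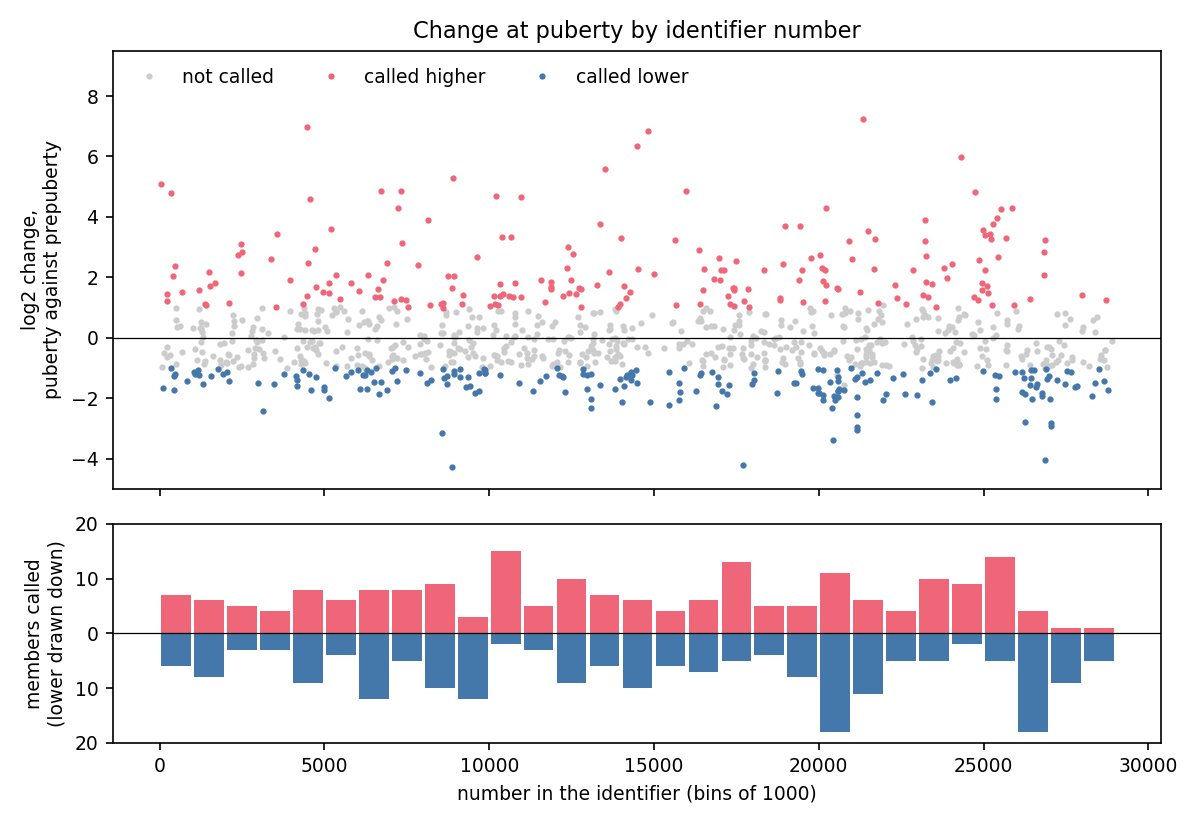
The upper panel plots the log2 change from prepuberty to puberty of each member against the number in its identifier, coloured by the limma call. The lower panel counts members called higher (upward) and lower (downward) in bins of 1000 numbers, and shows 32 falls and 6 rises in the last 3 bins, from 26000.

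Ordered by implied length into 4 groups of near-equal size, short members rose and long members fell in larger numbers at puberty. In the group with implied lengths of 114 to 500 bases, 68 of 250 rose and 44 fell. From 502 to 946 bases 58 rose and 42 fell, from 947 to 1832 bases 43 rose and 54 fell, and from 1833 to 14605 bases 31 of 250 rose and 70 fell. The medians of the change went from 0.01 through -0.15 and -0.19 to -0.51. All tested loci in the same length ranges rose at 19.6%, 29.0%, 27.6% and 22.2% and fell at 10.3%, 7.94%, 8.62% and 14.2%, against 27.2%, 23.3%, 17.3% and 12.4% and 17.6%, 16.9%, 21.7% and 28.0% for members. In each of the 4 ranges a larger share of members than of all tested loci fell. Level mattered as well, and members had higher levels than most tested loci. In 4 groups of members by mean level, from 0.34 to 1.05 FPKM in the lowest to 4.61 to 285 in the highest, 8%, 13.7%, 21.7% and 36.8% of members rose at puberty, against 16.4%, 29.3%, 33.4% and 49.9% of all tested loci in the same ranges. Falls were 9.2%, 20.5%, 26.9% and 27.6% of members against 4.05%, 18.8%, 33.8% and 29.7%. At like level a smaller share of members thus rose in each of the 4 ranges, while falls were a larger share in the lower ranges and a smaller one in the upper ranges. On the log2(FPKM + 1) scale a change of 1 needs a larger fold at low levels.

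**Figure D5:**
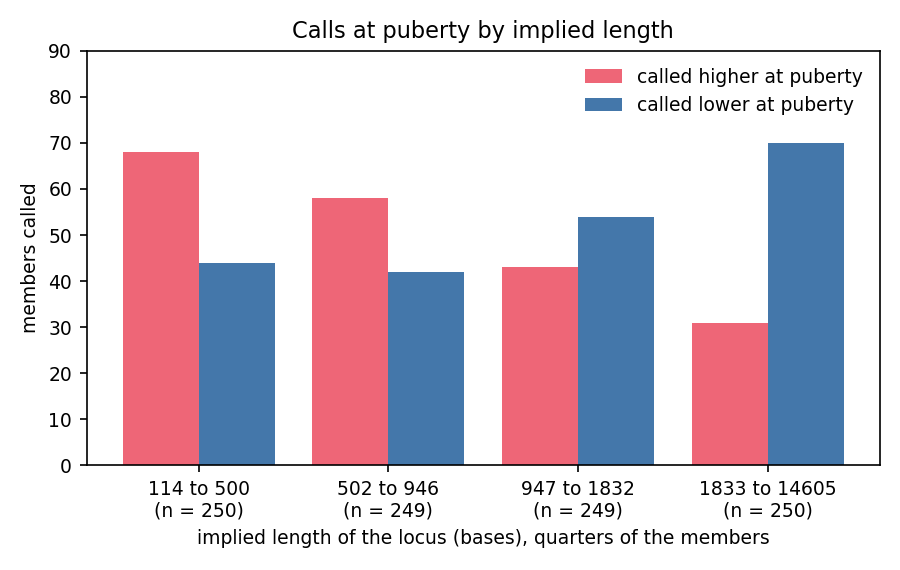
Bars count the members called higher (red) and lower (blue) at puberty in 4 groups of near-equal size by implied length, from 250 members of 114 to 500 bases on the left to 250 of 1833 to 14605 bases on the right. Rises go from 68 to 31 and falls from 44 to 70.

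At the edge of the selection lay gene16417 and gene26319, whose second highest values were 1.003 and 1.005 FPKM, and, left out, gene26743 and gene26609 at 0.999 and 0.991. In a fit of all 24116 loci, 0 of the 831 gene-number loci under the level were called in any of the 4 comparisons (limma; 39 to 228 at an unadjusted p under 0.05), and 1, gene24958, was called by the F test. All 831 had a read in some library, and the median of their highest values was 0.358 FPKM. At such levels a log2(FPKM + 1) change of 1 is almost out of reach (the largest was 0.95), so the level itself set these counts. In that fit 198 members rose and 209 fell at puberty.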

How the data were processed

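Testis RNA of 4 ages was read from 11 tables, 1 for each library, of 12 samples in the labels. The values are FPKM, which the authors deposited as 1 value per locus. HISAT2 2.1.0 and StringTie 2.1.1 are named in the submitters' processing notes, and per the labels' protocols TRIzol was used for total RNA and a lncRNA kit for the libraries. Genome build, annotation, counter and filters: not given in the sources used here. The FPKM steps gave whole reads (tolerance 0.0005 reads) for 24116 of 24116 loci (100%), with scaling totals of 19128357 to 35614224. Lengths were tried in turn until all libraries came within that tolerance. For loci with reads in few libraries the match is therefore no check of the recovered counts.

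Members and lists were chosen with earlier results of these data known. The model on log2(FPKM + 1) was limma's (3.58.1, R 4.3.3) over all 12954 loci at 1 FPKM or more in at least 2 libraries, with 1 mean per age, a variance trend, and Benjamini-Hochberg adjustment over all 12954. The fit was also run on simulated data, with the same spread set for all loci and changes put only on loci above a set mean level. Nothing is concluded from it about lower loci or about the spread of these replicates. Calls needed an adjusted p under 0.05 and a change of at least 1. An exact permutation test of a single locus cannot go below 0.1 with 3 against 3 libraries, or 0.2 with 3 against 2, and was not used. Loci named are the most abundant, the largest called changes in each comparison with separate libraries, the steadiest, the most abundant of each course, those at the edge of the level and the longest runs of numbers. The 20 alternatives changed the pseudocount (0.1), the level, the scaling, the tool (voom on recovered reads), the ages in the fit or the replicates. Replicates of an age differed by more than sampling noise. Correlations of the deviations of same-numbered libraries of different ages lay between -0.117 and 0.0469, so replicate numbers were not taken as pairs.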

Additional observations from a re-analysis of the deposited data

How the results depend on the processing

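Counts of members called, given as rises and falls, moved by over 1.5 times under these settings. Before puberty (main 21 and 13) there were 38 and 24 with a pseudocount of 0.1, 99 and 1 with the same FPKM sum in every library, and 2 and 0 with the 2 ages alone. Rises were 35 under quantile normalization and falls 5 after median of ratios scaling. Leaving out 1 library gave 15 to 26 and 6 to 19. At puberty (200 and 210) falls were 129 after median of ratios scaling, 352 with a pseudocount of 0.1 and 338 by voom on recovered reads. Leaving out 1 library gave 190 to 207 and 193 to 231. After puberty (7 and 2) there were 0 and 0 with the 2 ages alone, 3 and 4 under quantile normalization and 2 and 0 by voom. Falls were 6 after median of ratios scaling and 1 with a pseudocount of 0.1, and leaving out 1 library gave 5 to 17 and 1 to 5. Over the whole span (260 and 230) falls were 148 after median of ratios scaling, 364 with a pseudocount of 0.1, 87 with the same FPKM sum and 364 by voom. The cause was not tested. The sign of the members' median change depended on the scaling in all 4 comparisons. The change of gene21892 over the span turned to -0.27 under quantile normalization.

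With replicate number as a block, though the numbers did not pair the libraries (0 of 11 matched best with their own number), there were 20 and 15 calls before puberty, 197 and 217 at puberty, 6 and 1 after it, and 260 and 230 over the span. Without the variance trend and with no level the counts stayed within 1.5 times of the main ones. Of 99 changes of named members, 63 kept their call in all 20 alternatives. The step after puberty rests on 2 puberty libraries, and members with few reads have wide counting intervals.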
